A study of Schizosaccharomyces pombe with 4 samples.

Results

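The introns described here are the first introns, counted from the 5′ end, of nuclear protein-coding genes of the fission yeast *Schizosaccharomyces pombe* that have 2 or more introns. Of the 5361 introns in the table, 5327 lie in nuclear coding genes and 1372 are first introns of such genes. Those of at least 43 and under 200 bases with no snoRNA inside were kept, which left 1072. The limits removed 219 narrower and 81 wider first introns, and no first intron of these widths held a snoRNA. RNA came from the wild type, ED668, of mating type h+ with the alleles leu1-32, ura4-D18 and ade6-M216, and from the Bioneer collection's dbr1Δ strain. Its background is the same, so both carry these auxotrophic alleles. A single deletion strain stands for the loss of Dbr1. Each was grown as 2 cultures in YES, a rich medium, at 32 °C to an OD600 of 0.4, and rRNA-depleted RNA was sequenced with strand kept as 49-base reads. The edgeR p-values therefore measure the spread between 2 cultures of each strain.

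An intron leaves a pre-mRNA in 2 steps. Its 5′ end is first joined to an adenosine near its 3′ end, the branch point, which makes a lariat, and the exons are then ligated. The debranching enzyme Dbr1 opens the released lariat at the branch point so that nucleases can degrade it, and lariats persist in cells without it. Most fission yeast introns are short, and many genes hold several of them.

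In the coding part of their genes, 8 of these introns show the sequences behind the results. The 4 listed first are wide and rose in dbr1Δ, the intron of pik1 is narrow and its splicing efficiency fell, that of sar1 is narrow beside a wide intron of the same gene with more counts in dbr1Δ, and those of alp41 and prp39 fell. Capitals mark the first 6 bases, the last 3 bases and a branch-like stretch of 5 bases, which is the 3′-most match to CTNAC. Where that was missing CTNAT was marked, failing both of these the stretch TTNAC, and failing all of them the stretch TTNAT. All are in the transcribed direction, 5′ to 3′, at the table's coordinates in the RefSeq genome ASM294v3.
yop1, chrIII:2196929-2197061, minus strand: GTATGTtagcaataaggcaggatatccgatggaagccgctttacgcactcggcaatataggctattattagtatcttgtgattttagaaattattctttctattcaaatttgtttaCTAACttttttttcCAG
rps13, chrI:2746336-2746438, minus strand: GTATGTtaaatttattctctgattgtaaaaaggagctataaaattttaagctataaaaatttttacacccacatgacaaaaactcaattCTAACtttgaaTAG
spa2, chrI:3175907-3175992, minus strand: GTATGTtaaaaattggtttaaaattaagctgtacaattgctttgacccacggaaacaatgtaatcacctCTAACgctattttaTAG
rpl3801, chrII:754655-754783, plus strand: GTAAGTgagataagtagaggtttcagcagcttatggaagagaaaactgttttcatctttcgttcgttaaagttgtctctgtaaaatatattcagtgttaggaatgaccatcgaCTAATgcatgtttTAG
pik1, chrI:5052187-5052235, minus strand: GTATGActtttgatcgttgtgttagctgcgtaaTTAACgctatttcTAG
sar1, chrII:3761658-3761706, minus strand: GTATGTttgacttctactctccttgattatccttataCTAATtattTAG
alp41, chrI:697356-697400, plus strand: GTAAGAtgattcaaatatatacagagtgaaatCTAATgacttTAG
prp39, chrII:3429893-3429939, plus strand: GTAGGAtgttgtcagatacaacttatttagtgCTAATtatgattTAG

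Of the 1072 introns, 1068 opened with GT and closed with AG in this genome and 1031 were present with both ends in its annotation. All 1072 hosts were matched to the annotation by identifier, and 950 have a gene symbol of their own. By this annotation 1000 first introns interrupt the coding sequence and 31 lie before it, and the other 41 were not placed. The median width was 57 bases, and the exon before the intron had a median length of 168 bases (quartiles 94 and 284). Among the hosts, 530 have 2 introns and 273 have 3, and the highest number is 15.

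The start GTANGT was present in 46.1% of the first introns, 49% of internal, 59.3% of last and 62.3% of sole introns of the same widths. GTAAGT opened 22.2% of first and 31.2% of last introns, and GTATGT 18% and 21%. The first introns thus carried these starts at a share close to internal introns and below last and sole introns. The end TAG closed 66.1% of first introns, 64.9% of internal, 68.0% of last and 76.7% of sole introns. CTNAC was held anywhere in 52.1% of first introns, 55.8% of internal, 60.7% of last and 58.9% of sole introns. On the opposite strand the same 5 letters matched in 47.4% of first introns. That match reads GTNAG on the transcribed strand, which starts such as GTAAGT hold, so this share is not a background for CTNAC. Matches are given as a description, and whether they are branch points was not tested. On the transcribed strand CTNAT was held in 42.3% of first introns, the stretch TTNAC in 51.6% and the stretch TTNAT in 64.7%, and matches to different motifs can share bases. In 7 first introns none of the 4 was found. The A of the chosen match lay a median of 12 bases before the last base (quartiles 10 and 15).

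The 4 libraries held 25169220 and 36062720 counts (wild-type replicates 1 and 2) and 24205354 and 19780858 counts (dbr1Δ replicates 1 and 2). The dbr1 transcript had 1535 and 1799 counts in wild type against 207 and 164 in dbr1Δ, a log2 change of -2.77 (SE 0.12, edgeR adjusted p = 3.80e-07). The first intron of dbr1, of 45 bases, had 11 and 15 exon-exon junction reads in wild type and none in either dbr1Δ culture. Its count was too low for a test, with 2 and 0 in wild type and 0 and 0 in dbr1Δ. The other introns of dbr1 had 37 and 53 counts in wild type against 54 and 50 in dbr1Δ. The source of those reads was not tested.

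As a group, first introns were more abundant in dbr1Δ. The count of an intron adds the reads over its 5′ boundary with the exon to the other reads assigned to it, here called reads inside it. Reads over the 3′ boundary are not counted apart, so reads called inside an intron may include them. The 1072 introns together held 20369 and 31247 counts in wild type against 126695 and 107140 in dbr1Δ. In CPM, which are counts relative to library size with TMM scaling, this was 822 and 882 against 5044 and 5431, or 852 ± 42 against 5237 ± 274 (SD, n = 2 each), a ratio of 6.14. Reads inside the introns rose by a ratio of 6.81 and boundary reads by 1.88, from 116 ± 11 to 218 ± 0.012 CPM. The strains did not overlap in any of these sums, but 2 against 2 libraries cannot give an exact permutation p under 0.33.

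Tested one by one, 322 of the 647 first introns with enough counts rose more than 2-fold in dbr1Δ and 10 fell (edgeR, adjusted p under 0.05). Over all loci tested in the same fit 21.8% were higher and 2.32% lower, over all introns 53.0% and 1.32%, and over all transcripts 6.69% and 2.81%. With 49.8% higher, first introns stood near the share for introns in general. Their median log2 change was 1.12, against 1.24 over all tested introns, 0.04 over all loci and -0.18 over transcripts. The other 425 first introns had too few counts, and 19 of these had no read in any library. In 124 tested introns both wild-type libraries were under 10 counts, so that they entered only through dbr1Δ, and 115 of them were higher. Of 386 with at least 10 counts in both wild-type libraries, 135 were higher. Without dbr1Δ replicate 1 the count of increases was 196 of 499 tested, and without dbr1Δ replicate 2 it was 186 of 512. In a fit of introns without transcripts, which centres the scaling on introns, 169 were higher and 163 lower.

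The rise differed with intron width, a feature that the choice of introns used only at its limits. RNA was fragmented to about 200 nt before sequencing. The authors expected lariats of long introns to be enriched for technical reasons, and those of short introns to be recovered less efficiently. How much of the difference with width follows from this was not tested. Among introns of 43 to 48 bases, shorter than a read, 28 of 117 tested were higher with a median log2 change of 0.51. In those of 49 to 74 bases it was 88 of 279 with 0.67, and in those of 75 to 99 bases 54 of 85 with 1.63. From 100 to under 150 bases 97 of 107 rose with a median of 3.39, and from 150 to under 200 bases 55 of 59 rose with a median of 4.85. These counts and medians are over introns that passed the filter, some only through dbr1Δ. Of all first introns in the 5 classes 28 of 266, 88 of 493, 54 of 124, 97 of 116 and 55 of 73 were higher, so that the share was below that of the class before it in the widest class. Across the 647 introns the Spearman correlation of log2 change and width was 0.60, but it was 0.075 over the 396 introns under 75 bases and 0.58 over the 251 of 75 bases or more. All these points share the 4 libraries. Summed CPM of the class from 100 to under 150 bases went from 118 and 123 in wild type to 1597 and 1829 in dbr1Δ, a ratio of 14.2. For the 43 to 48 base class the sums were 153 and 166 against 222 and 214, a ratio of 1.37. Boundary reads had a ratio between 1.54 and 4.06 in every width class, and reads inside the intron between 1.27 and 17.4.

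**Figure D1:**
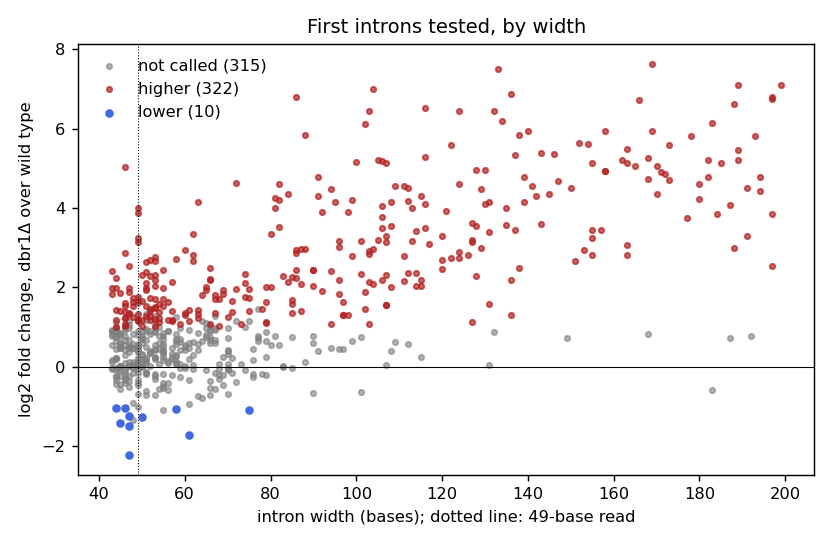
The log2 fold change (dbr1Δ over wild type) of each of the 647 tested first introns is plotted against intron width in bases. Red points are the 322 higher, blue points the 10 lower and grey points the 315 not called; above 100 bases nearly all points are red, and 9 of the 10 blue points lie under 75 bases.

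**Figure D2:**
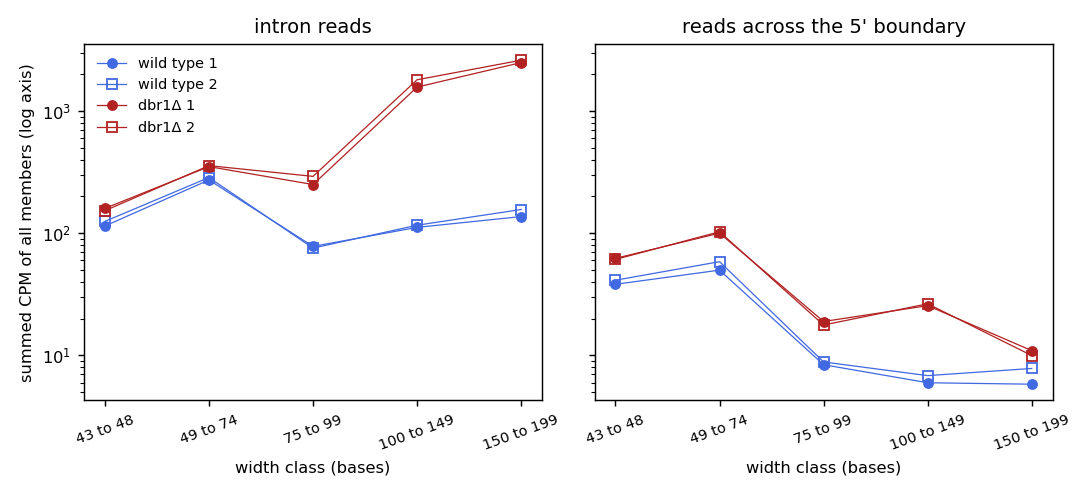
Summed CPM of all 1072 first introns in 5 width classes is shown on a log axis, with a line for each of the 4 libraries. Reads inside the intron, meaning those not counted at its 5′ boundary, are on the left and reads across that boundary on the right. For reads inside the intron the strains are apart in every class, by a ratio of 1.27 to 1.31 under 75 bases, 3.53 from 75 to 99 bases and 17.4 in the widest class, while the boundary reads differ by ratios of 1.54 to 4.06.

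At the lower limit of the chosen widths the values ran on. First introns of 40 to 42 bases, just left out, had 12 of 57 tested higher with a median log2 change of 0.50, and those of 43 to 45 bases had 10 of 56 with 0.53. At the upper end, 23 of 26 tested introns of 180 to under 200 bases were higher, with a median of 4.695. All 12 of 200 to under 220 bases were higher, with a median of 6.13, so the median did not run on there.

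First introns were set beside internal, last and sole introns of equal width, and the differences between these shares and medians were not tested. The share of all introns that was higher, weighted to the widths of first introns, was 30.0% in first, 30.9% in internal, 29.6% in last and 29.0% in sole introns. In the class from 100 to under 150 bases the median log2 change was 3.39 in first, 3.44 in internal, 3.20 in last and 3.41 in sole introns. From 150 to under 200 bases 75.3% of all first introns were higher, against 91.3% of internal, 90.8% of last and 93.3% of sole introns. Among those tested in that class the shares were 93.2%, 95.5%, 95.2% and 97.2%, and 59 of 73 first introns were tested. The log2 ratio of summed counts of first over internal introns went from -0.62 and -0.61 in wild type to 0.35 and 0.41 in dbr1Δ, a difference of 0.99 (exact permutation test, two-sided p = 0.33, the smallest possible). Against last introns the difference was 0.12 and against sole introns -0.31, with the same p. Sums follow the most abundant introns. From 150 to under 200 bases internal introns rose in sum by a ratio of 3.99 and first introns by 16.7. The median log2 changes of single introns in that class were 4.72 in internal and 4.85 in first introns.

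The 12 first introns with the largest fitted increases, chosen among those whose strains did not overlap, were 86 or more bases wide. The intron of yop1, whose product shapes the tubular endoplasmic reticulum (ER), had 1 and 2 counts in wild type against 259 and 189 in dbr1Δ, a CPM ratio of 200 (95% counting interval 68.1 to 975). It had no boundary read in any library, while the exon-exon junction had 85 and 158 reads in wild type and 119 and 79 in dbr1Δ. None of the reads gained by this 133-base intron was thus counted at its 5′ boundary. In ham1, for a nucleoside triphosphatase, the counts were 2 and 0 against 118 and 102, a ratio of 148 (counting interval 40.4 to 1226). Its fitted log2 change was 7.01, and 10.04 without wild-type replicate 1 and 5.85 without wild-type replicate 2. The ER SNARE gene ufe1 had 18 and 30 counts in its 197-base intron against 1956 and 1879 (log2 change 6.75, SE 0.17, adjusted p = 9.49e-09). In each of these introns nearly all reads came from dbr1Δ.

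Similar values were seen in genes of other functions. In spd2, which belongs to a family of ribonucleotide reductase inhibitors, the intron at the upper width limit had 8 and 18 counts against 1419 and 1248 (log2 change 7.10, SE 0.17). In qcr8, a subunit of the cytochrome bc1 complex of the respiratory chain, it had 7 and 18 against 1347 and 1207 (7.10, SE 0.19). The kinase gene hhp2 (casein kinase 1 family) had 15 and 33 against 2062 and 1710 in a 166-base intron (6.72, SE 0.14). These introns were nearly silent in wild type and among the abundant first introns in dbr1Δ. The proteasome gene rpn1302 went from 15 and 19 to 1683 and 1196, rpc25 (RNA polymerase III) from 12 and 18 to 995 and 1035, and SPAC4H3.09 (fatty acid synthase) from 8 and 8 to 728 and 473. The narrowest of the 12 was the 86-base intron of spa2, annotated as a GTPase-activating protein, with 4 and 13 against 661 and 746 (log2 change 6.80, SE 0.31). SPBC530.11c, a transcription factor gene, had 4 and 5 against 413 and 389. The intron of wtf22, of the wtf family of spore killers, had no count in wild type and 18 and 24 in dbr1Δ, at least 18.8-fold higher against a floor of 3 counts over the wild-type libraries. Its place among the 12 rests on a fitted change that is no bound. The wtf genes are near-identical copies and reads matching several loci were removed, so this value is uncertain.

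**Figure D3:**
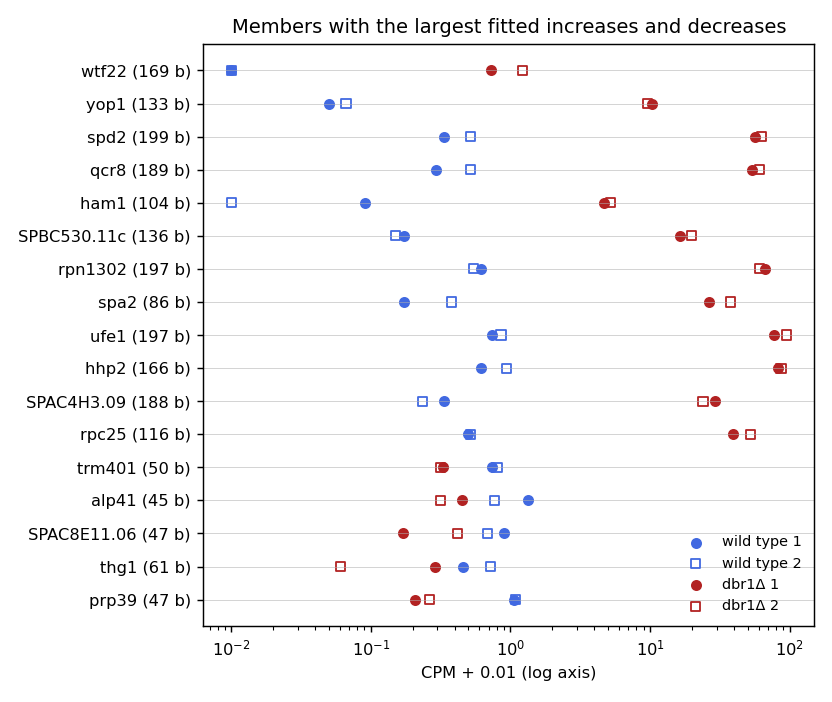
CPM plus 0.01, on a log axis, in each of the 4 libraries for the 12 first introns with the largest fitted increases and the 5 with the largest decreases, with intron width in bases (b). Wild type (blue) and dbr1Δ (red) do not overlap in any of the 17, by the rule that chose them; the 12 with increases sit at 0.94 CPM or less in every wild-type library.

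Narrow introns could also rise. The 46-base intron of vcx1, a calcium-proton exchanger, lies before the coding sequence and had 9 and 14 counts in wild type against 318 and 253 in dbr1Δ (log2 change 5.04, SE 0.20, adjusted p = 2.03e-07). The 49-base intron of atp20, a subunit of ATP synthase, went from 7 and 14 to 80 and 59 (3.14, SE 0.29). The 60-base intron of pre6, a 20S proteasome subunit, went from 27 and 37 to 179 and 186 (2.95, SE 0.22), and 116 and 123 of the dbr1Δ reads crossed its 5′ boundary. In vcx1, by contrast, boundary reads were 11 and 8. The intron of vcx1 is shorter than a read, and how reads were assigned to it is not known, so this contrast is uncertain. These 3 genes were chosen after their values were seen.

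In turn, 14 of the 166 tested introns of 100 bases or more were not called. The 109-base intron of lsm6, a U6 snRNP protein, had 120 and 162 counts against 193 and 136 (log2 change 0.64, SE 0.15, adjusted p = 0.00779), under the 2-fold cutoff. The 168-base intron of ypt1, a Rab GTPase of ER-to-Golgi transport, had 37 and 73 against 83 and 60 (0.82, SE 0.23). In mtd1, which acts in folate metabolism, the 115-base intron had 11 and 28 against 16 and 18 (0.25, SE 0.41). Counts of the strains overlapped in lsm6, mtd1 and ypt1 as counted, and the CPM of mtd1 overlapped too. These genes were also chosen after their values were seen.

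Of the 10 first introns that fell, 9 were under 75 bases and 1 was of 75 to 99 bases. In prp39, for a U1 snRNP protein that acts at the 5′ splice site, the 47-base intron had 26 and 38 counts in wild type but 5 in either dbr1Δ culture (log2 change -2.23, SE 0.39, adjusted p = 0.00161). In thg1, for the enzyme that adds a guanine to histidine tRNA, they were 11 and 25 against 7 and 1 (-1.71, SE 0.63). In alp41, for a small GTPase of tubulin folding, they were 33 and 27 against 11 and 6 (-1.42, SE 0.45). Counts were low in these 3 introns, which were chosen among those whose strains did not overlap. SPAC8E11.06 had 22 and 24 against 4 and 8 (-1.50, SE 0.49), and trm401, a tRNA methyltransferase gene, 18 and 28 against 8 and 6 (-1.28, SE 0.39). The most abundant was the 47-base intron of spp41, with 512 and 793 against 231 and 177 (-1.25, SE 0.12). All 10 hosts had a log2 change below 0 as well, -0.80 in prp39 and -0.95 in spp41. Against their hosts, only the introns of prp39 (-1.43, adjusted p = 0.00793) and thg1 (-1.29, adjusted p = 0.0489) were lower by more than 2-fold. The intron of thg1 lost this call without wild-type replicate 1, wild-type replicate 2 or dbr1Δ replicate 2 (adjusted p = 0.0594, 0.199 and 0.270), and that of prp39 without dbr1Δ replicate 1 (0.0831). The number of decreases was 4 with DESeq2 and 5 with scaling from transcripts, and 4, 5 and 4 without wild-type replicate 1, wild-type replicate 2 and dbr1Δ replicate 2. With DESeq2 the introns of alp41, SPAC8E11.06, thg1 and trm401 had adjusted p-values of 0.0679, 0.112, 0.141 and 0.146. With edgeR and scaling from nuclear coding transcripts these were 0.0509, 0.0571, 0.0777 and 0.0502. Leaving out a dbr1Δ culture also ended a call in each of these introns. It was replicate 1 in SPAC8E11.06 (log2 change -0.87), replicate 2 in thg1 (-1.04), and either one in alp41 (-1.68 and -1.17) and trm401 (-1.27 and -1.22). In alp41 leaving out wild-type replicate 1 ended it too (-1.01).

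The hosts' transcripts were tested in the same fit. Of 1060 hosts tested 14 were higher and 20 lower, with a median log2 change of -0.24. Across the 647 tested introns, which share the 4 libraries, the Spearman correlation of intron and host log2 change was 0.23. In a test of intron against host within each library, which does not depend on the scaling between libraries, 360 of 599 first introns rose more than 2-fold and 2 fell, beside 62.1% and 0.382% of all introns tested. The median was 1.27, against 1.46 for all introns. The largest rises against the host were in SPBC530.11c (7.46, SE 0.33), spa2 (7.29, SE 0.34), rpc25 (7.17, SE 0.26), ham1 (7.03, SE 0.50, and 5.82 to 10.06 without 1 wild-type library) and yop1 (7.01, SE 0.39). The host counts of yop1 were 2186 and 2954 in wild type and 3064 and 2356 in dbr1Δ.

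Splicing efficiency fell in dbr1Δ in first introns of every width. It is the log2 of exon-exon junction reads plus 1 over boundary reads plus 1, and it does not count reads inside the intron. Its median over the 811 first introns that could be tested was 4.09 and 4.25 in wild type and 3.0 and 2.97 in dbr1Δ. Over all 1072 introns, the share of boundary reads among boundary and junction reads was 3.24% and 3.67% in wild type. In dbr1Δ it was 8.03% and 7.81%. The strains were apart by more than the spread between cultures in both measures. By the Cochran-Mantel-Haenszel (CMH) test, 144 of 811 first introns were lower (adjusted p under 0.05) and none was higher, with 1 higher at an unadjusted p under 0.05. This was 17.8%, beside 19.0% of all introns lower and 0.125% higher. The edgeR interaction test, which estimates the spread between cultures, gave 88 of 889 lower and none higher, with 1 higher unadjusted, beside 10.5% and 0.0694% of all introns. The CMH test takes reads as independent. Both tests shared 87 introns. Without 1 library the edgeR count was 16 and 21 (wild-type replicates 1 and 2) and 28 and 43 (dbr1Δ replicates 1 and 2).

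Unlike the level, the change in splicing efficiency was alike across widths. Its medians were -1.20, -1.30, -1.10, -0.98 and -1.10 from the narrowest to the widest class, and its Spearman correlation with width was 0.044 over 811 introns. Of 132 introns with lower splicing efficiency and a tested level, 83 also had a higher level, beside 274 of all 560 introns in which both were tested. Boundary reads enter both measures, so the 2 calls are not independent. Across the 560 introns in which both were tested the Spearman correlation of the 2 changes was -0.07.

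**Figure D4:**
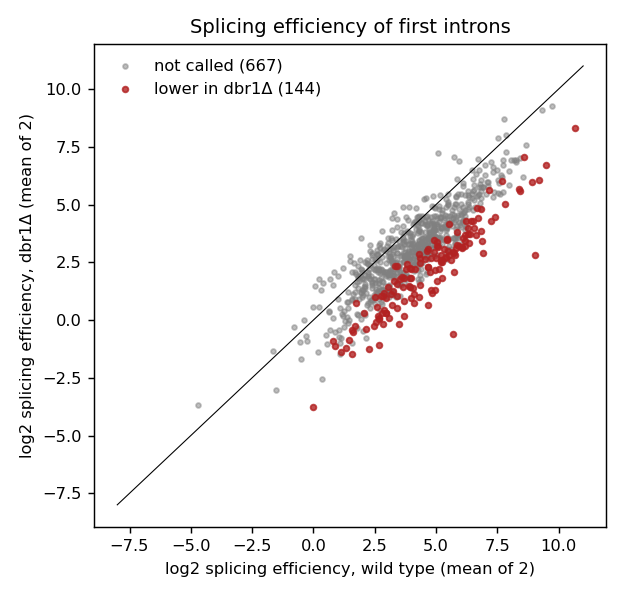
Splicing efficiency (log2) of the 811 tested first introns in dbr1Δ against wild type, each a mean of 2 cultures, with the line of equality. Most points lie below the line, and the 144 lower by the CMH test (red) lie among them. The red points run from wild-type values of about 0 to 10.7, and no point clearly below 0 on that axis is red.

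The largest fall with separated libraries was in pik1, the phosphatidylinositol 4-kinase of the Golgi. Its 49-base intron had no boundary read in wild type and 32 and 17 in dbr1Δ, while junction reads were 41 and 62 against 15 and 15. Splicing efficiency was 5.39 and 5.98 against -1.04 and -0.17, and it fell by both the CMH test (adjusted p = 5.39e-17) and edgeR (adjusted p = 1.41e-10). In rpl3801, for the 60S ribosomal protein eL38, boundary reads were 0 and 3 against 97 and 59 and junction reads 834 and 1317 against 549 and 526 (CMH adjusted p = 4.15e-54). A second gene, rpl3802, encodes the same protein, so reads shared by both were removed and these counts are uncertain. In rbd4, for a rhomboid protease, boundary reads were 3 and 5 against 31 and 28, and splicing efficiency went from 4.57 and 4.75 to 0.98 and 0.31. Boundary reads thus rose and junction reads fell in each of these genes.

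The other large falls were in SPCC1620.06c, which makes phosphoribosyl pyrophosphate, in spt20 of the SAGA coactivator and in SPBP4H10.12. In SPCC1620.06c splicing efficiency was 7.77 and 6.03 in wild type and 2.63 and 3.20 in dbr1Δ, and in spt20 2.81 and 2.54 against -0.92 and -1.26. The edgeR adjusted p of spt20 was 0.0681 without wild-type replicate 1 and 0.0833 without wild-type replicate 2. In SPBP4H10.12 only 2 junction reads were seen in all, and edgeR gave an adjusted p of 0.169.

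In 61 first introns no library had a junction read, and 8 of these had at least 20 boundary reads. They are the introns of snu23, prp10, uso1, gnd1, spp41, clu1, lat1 and omh3, found after the values were seen. In prp10, a U2 snRNP gene, boundary reads were 393 and 550 in wild type and 307 and 240 in dbr1Δ. Its host transcript had 7278 and 10450 counts against 7126 and 5417. No read of the spliced form was seen at this depth, and the reason was not tested. The intron annotated in lat1 has neither GT at its start nor AG at its end. In omh3, for a mannosyltransferase, boundary reads were 2 and 3 in wild type against 190 and 160 in dbr1Δ, and the intron count 4 and 10 against 419 and 357 (log2 change 6.20, SE 0.23). The strains were far apart in omh3 with no read across its junction in either.

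Inside one gene, the first intron moved above or below the other introns of its host depending on their widths. In 493 hosts with enough counts the change of the first intron was set against that of the sum of the others, which could be of any width. It was more than 2-fold above them in 99 and below them in 200, or 20.1% and 40.6%, beside 23.3% and 37.4% over all 626 hosts with a first intron of any width. The median difference in log2 change was -0.63. Where the first intron was wider than every other, it was above in 76 and below in 18 of 163 hosts, with a median of 0.98. Where it was narrower than every other, it was above in 12 and below in 125 of 202, with a median of -2.0. With a first intron over 99 bases and all others under 75, 35 of 48 were above and 3 below (median 2.69). With a first intron under 75 bases and another over 99, 2 of 145 were above and 118 below (median -3.48). In the 136 hosts with all introns under 75 bases, 16 were above and 18 below, with a median of 0.05. Where the next intron was within 5 bases of the width of the first, 10 of 55 were above and 13 below it. The Spearman correlation of the difference with the log2 ratio of widths was 0.73 over 493 hosts. The lower recovery of short introns named above bears on these comparisons too.

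**Figure D5:**
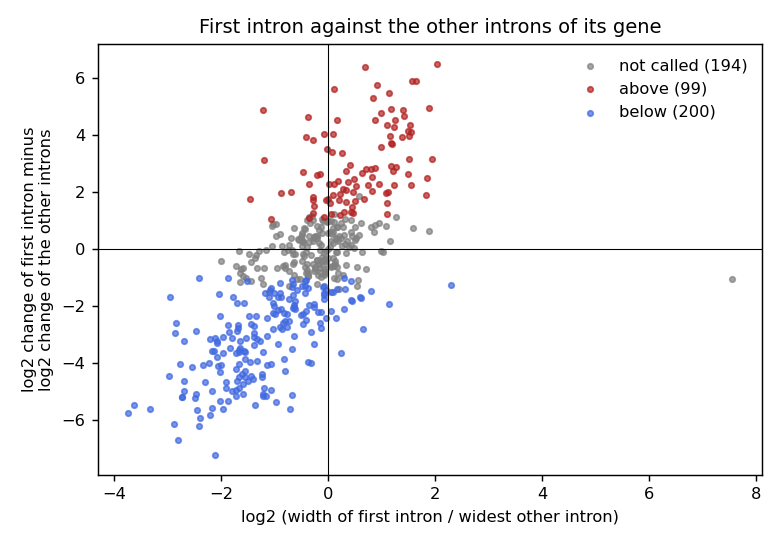
For 493 hosts, the log2 change of the first intron minus that of the other introns is plotted against the log2 ratio of the first intron's width to the widest other intron. The 99 above (red) lie mostly where the first intron is wider and the 200 below (blue) mostly where it is narrower; the point at the far right is clu1, whose other annotated intron is 1 base wide.

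Furthest above were the first introns of bbl1, rps13, cnb1, tfg3 and rdl2. The 103-base first intron of rps13, for a protein of the 40S ribosomal subunit, had 48 and 95 counts in wild type against 5580 and 3788 in dbr1Δ (log2 change 6.45, SE 0.15, adjusted p = 6.30e-09). Its other introns, of 63 and 64 bases, had 7222 and 9957 counts in wild type against 8134 and 5528. The difference was 6.39 (SE 0.24). In bbl1, which acts in phospholipid synthesis, the 183-base intron went from 4 and 19 to 697 and 522, and the other, of 45 bases, had 10 and 15 against 12 and 3 (difference 6.51, SE 0.66). The calcineurin subunit gene cnb1 had a difference of 5.91 (SE 0.54), tfg3 of 5.89 (SE 0.53) and rdl2 of 5.76 (SE 0.43). In all 5 the first intron was the widest of its host.

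Furthest below were those of ypt3, pgm2, ank1, cgs2 and sar1, all of 49 to 62 bases. In sar1, the GTPase that builds the COPII coat of ER vesicles, the 49-base first intron had 208 and 345 counts in wild type against 133 and 168 in dbr1Δ (log2 change -0.41, SE 0.22, adjusted p = 0.141). The second, of 257 bases, had 78 and 168 against 5618 and 2824. In the Rab11 gene ypt3 the 56-base first intron had 115 and 248 against 91 and 106, and the others, up to 244 bases wide, 68 and 80 against 6957 and 5783 (difference -7.24, SE 0.31). In pgm2, for phosphoglucomutase, the first had 41 and 57 against 42 and 29 and the second, of 437 bases, 42 and 33 against 3335 and 2391 (-6.71, SE 0.36). The first introns of these genes overlapped between strains or nearly so, and the wide introns beside them did not.

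Per base, the most abundant first introns of wild type were those of rps29, spp41, cpc2 and rpl22. The 51-base intron of rps29 (40S subunit) had 625 CPM per 1000 bases, and its counts of 747 and 1190 in wild type stood against 511 and 431 in dbr1Δ (log2 change -0.60, SE 0.10). Its boundary reads were 3 and 6 against 20 and 19, so the boundary reads were higher in dbr1Δ while the whole count was lower. The 197-base intron of cpc2, for the ribosomal protein RACK1, had 1704 and 3001 against 10895 and 9120 (2.54, SE 0.11). The 46-base intron of rpl22 had 401 and 674 against 898 and 659 (0.97, SE 0.11).

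Hosts were also grouped by function. Among 11 cytosolic ribosomal protein genes, 6 of 10 tested first introns were higher and none lower, with a median log2 change of 1.09, and splicing efficiency was lower in 6 of 11. Examples are rpp102 (139 bases), with 534 and 831 counts against 8921 and 8838, and rps2502 (50 bases), with 209 and 290 against 444 and 398. Reads of near-identical ribosomal protein copies were removed, so these values are uncertain. Among 30 hosts for spliceosome and splicing factors, 8 of 20 were higher and 1, prp39, lower (median 0.74), and splicing efficiency was lower in 1 of 21. The 53-base intron of SPBC11C11.01, a U2-associated protein, had 16 and 23 counts against 65 and 54, and that of lsm5 (U6 snRNP) 5 and 7 against 26 and 20. These shares stand beside the 49.8% higher and the median of 1.12 over all tested first introns, and 17.8% for splicing efficiency. Among first introns with at least 100 junction and boundary reads, splicing efficiency was lower in 139 of 498. The ribosomal protein introns had median counts of 209 and 290 in wild type, against 6 and 9 over all first introns. Whether depth accounts for their share was not tested.

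For ribosome biogenesis 4 of 16 were higher and none lower (median 0.40), with splicing efficiency lower in 6 of 15. In nip7, which matures the 60S subunit, boundary reads were 0 and 1 against 9 and 2, and the intron had 9 and 25 counts against 112 and 84. For tubulin and actin, 4 of 11 were higher and 1, alp41, lower (median 0.90). The tubulin chaperone gene alp31 had 14 and 9 boundary reads against 52 and 18, and acp2, an actin-capping subunit, 56 and 45 intron counts against 628 and 484. For vesicle transport and small GTPases 18 of 38 were higher and none lower (median 0.99). Here spi1, the Ran GTPase, had 104 and 208 counts against 4420 and 3643, and its binding protein gene sbp1 73 and 122 against 2334 and 1839. For proteasome and ubiquitin 16 of 33 were higher and none lower (median 0.97), with dss1 at 11 and 16 against 392 and 347 and rbx1, a ubiquitin ligase subunit, at 71 and 107 against 596 and 464. Splicing efficiency was lower in 4 of 18 for tubulin and actin, 8 of 41 for vesicle transport and small GTPases and 8 of 45 for proteasome and ubiquitin. Median intron widths of the 6 groups ran from 50 to 55 bases.

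The place in the gene and the sequence features were set beside the changes as a description. Of 20 tested introns before the coding sequence 13 were higher (median 1.65), and of 616 in the coding sequence 303 (median 1.08). One of the former, in the Ran exchange factor gene pim1, had 9 and 20 counts against 350 and 320. By the number of introns in the host, the share of tested first introns that was higher was 50.2% with 2 introns, 53.1% with 3 and 44.8% with 4 or more, whose first introns had a median width of 53 bases. In introns of 75 bases or more, 141 of 166 with CTNAC were higher (median 3.32) and 48 of 60 whose best match was CTNAT (median 3.05). In those of 43 to 74 bases the medians were 0.66 and 0.68. With GTAAGT at the start, 68 of 79 wide introns were higher, with GTATGT 46 of 60 and with other starts 92 of 112. Where the best match was TTNAC, 17 of 24 wide introns were higher. Over all tested first introns of 75 bases or more it was 206 of 251, and differences between motifs were not tested.

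Of the lariat turnover genes listed, 8 of 10 were matched in the table as transcripts, and all 8 were lower at an adjusted p under 0.05, with dbr1 alone past 2-fold. At that threshold, with no fold cutoff, 42.6% of all 6401 transcripts tested were lower. The helicase gene prp43, whose product takes the spliceosome apart, had 8593 and 12740 counts against 5442 and 4129 (log2 change -0.73, SE 0.07). The exosome nuclease gene rrp6 had 5791 and 8454 against 3388 and 2689 (-0.80, SE 0.07). Scaling from transcripts would raise the log2 changes in this fit by 0.17, beside which the changes of ntr1 (-0.32) and of the 5′ exonuclease gene dhp1 (-0.25) are small.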

How the data were processed

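The authors aligned 49-base reads with Bowtie to build EF1 (Ensembl) of the genome and to spliced exon junctions, removed reads that matched multiple loci, and deposited counts per transcript and intron and reads across each 5′ boundary, without normalization. Splicing efficiency was deposited by the authors as a log2 value, from which junction reads were recovered as whole numbers (within 0.001). How reads were assigned to introns shorter than a read is not given in the sources used here. The table also holds the authors' expression values, fold changes and p-values, which were not used.

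Intron counts include boundary reads. A locus entered the edgeR 4.0.16 fit (quasi-likelihood, TMM, R 4.3.3) when 2 libraries had 10 counts or more, and Benjamini-Hochberg adjustment covered the 9518 loci tested. Calls required more than a 2-fold change at an adjusted p below 0.05. Splicing efficiency was tested by CMH with the replicate number as stratum in introns with at least 20 junction and boundary reads, and by an edgeR interaction. In 78 introns the CMH test was undefined and 183 had too few reads. Intron against host and against the other introns of the host used edgeR interactions with a term per library and a mean of at least 10 counts. SciPy 1.17.1 and pandas 2.3.3 were used. Totals of 19780858 to 36062720 counts set the precision, and intervals and floors cover counting error only. Coordinates and sequences were read from ASM294v3, where the lengths of chromosomes I and III (5579133 and 2452883) equal the highest ends in the table. The fits were tested on simulated data.

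The introns, lists and tests were chosen with earlier results of these data known. The introns named are the 12 largest increases and 5 largest decreases with separated libraries, the 6 largest falls in splicing efficiency, the 5 furthest above and below the other introns, the 5 largest rises against the host, the 4 with most wild-type reads per base, up to 4 of each host list, and those of alp41 and dbr1. No rise in splicing efficiency passed. Others are named as chosen later. In 3 members another transcript overlaps on the same strand. The alternatives were other scalings, DESeq2 1.42.0, other filters, body or boundary reads alone, a block by replicate number and leaving out libraries 1 at a time.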

Additional observations from a re-analysis of the deposited data

How the results depend on the processing

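The 322 increases in intron level became 134 with a mean of at least 50 counts (177 introns tested), 169 in a fit of introns alone, 51 with boundary reads alone (86 tested), and 186 to 301 when 1 library was left out. DESeq2 called 261 increases, all among the 322, and scaling from transcripts 357, which held all 322. The 10 decreases became 5 with scaling from transcripts, 2 from nuclear coding transcripts, 4 with DESeq2, 1 with a mean of at least 50 counts, 16 without a fold cutoff, 163 in the fit of introns alone, 1 with boundary reads alone, 4 without introns of 43 to 48 bases and 4 to 7 without 1 library. Scaling from transcripts raised log2 changes by 0.17, and from nuclear coding transcripts by 0.23. Falls in splicing efficiency numbered 88 by edgeR in place of 144 by CMH, and 16 to 43 by edgeR without 1 library. Against the host, a mean of at least 50 counts gave 137 increases and 0 decreases, no fold cutoff gave 5 decreases, and leaving out 1 library gave 1 to 2. Against the other introns, a mean of at least 50 counts left 24 above and 33 below (86 hosts tested). Without boundary reads the change of the log2 ratio of first to internal introns was 1.11.

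For single introns the direction of the log2 change turned as follows. In the fit of introns alone it was -0.43 in rpl22, -0.77 in lsm6, -0.22 in rps2502, -1.13 in mtd1 and -0.57 in ypt1. In mtd1 it was -0.20 without boundary reads and -0.0554 to 0.78 without 1 library. With boundary reads alone it was 2.65 in rps29 and 0.28 in sar1. In pgm2 it was 0.0062 with library totals alone, 0.13 and 0.18 with both transcript scalings, and -0.10 to 0.0699 without 1 library. Without 1 library the log2 change also ran from -3.39 to -1.04 in thg1, from 6.42 to 7.59 in spa2 and from 5.64 to 7.35 in bbl1. Against its host SPAC8E11.06 ran from -1.19 to 0.29 without 1 library.

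With the replicate block 315 introns were higher, 312 of them among the 322, and 9 were lower. Among the introns named, only that of thg1 changed its call for level (adjusted p = 0.0644). Deviations of libraries with the same replicate number had a correlation of -0.0228, so the number does not pair the cultures.

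Where leaving out a library left 1 culture in a strain, that culture was assumed to vary like the others. Low depth limits these values: 425 of the 1072 first introns had too few counts for a test of level and 183 too few reads for one of splicing efficiency. Introns shorter than a read and near-identical gene copies are the least certain. With 2 cultures a strain, no exact test of a single value can pass 0.05. The causes of the shifts listed here were not tested.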
